A study of Mus musculus with 11 samples.

Results

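Ubiquitin is a small protein that cells attach to other proteins, most often to mark them for destruction by the proteasome. The genes described here make ubiquitin (Ubb and Rps27a), activate it (Uba1) and remove it again (Usp14 and Usp19). They were chosen by name, as the 5 rows of the count table that carry these symbols, among 55385 genes in all. All 5 passed the filter on low counts, which left 15416 genes for testing.

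RNA was sequenced from whole gastrocnemius, a mixed-fibre calf muscle, of mice fasted for 36 h, a state in which muscle protein is broken down. ZEB1 knockouts (ZEB1_KO, 3 libraries) carried ZEB1 flx/flx with HSACre, and their controls (ZEB1_control, 2 libraries, numbered 2 and 3) carried ZEB1 flx/flx without Cre. ZEB2 knockouts (ZEB2_KO, 3 libraries) carried ZEB2 flx/flx with HSACre, and their controls (ZEB2_control, 3 libraries) carried ZEB2 flx/flx without Cre. HSACre is driven by the human skeletal actin promoter and acts in myofibres, so other cells of the muscle keep the floxed gene. None of these groups had Cre without floxed alleles, so loss of a ZEB gene and presence of Cre cannot be told apart, and all were fasted. Since RNA of 2 mice was pooled in each library, the p-values refer to the spread among pools. The labels give no age or strain.

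Per library, ZEB1_KO had 29.6 to 33.3 M counts and ZEB1_control 27.3 to 28.2 M, and ZEB2_KO had 35.8 to 46.3 M and ZEB2_control 31.4 to 36.0 M. Zeb1 stood at 28.4 to 30.4 CPM in ZEB1_KO and 41.2 to 51.1 CPM in ZEB1_control, and Zeb2 at 14.4 to 18.3 CPM in ZEB2_KO and 23.1 to 25.8 CPM in ZEB2_control. The ZEB2 line also differed in Zeb1, at 60.2 to 76.0 CPM in ZEB2_KO and 43.7 to 52.1 CPM in ZEB2_control. In the ZEB1 line Zeb2 overlapped, at 19.7 to 21.8 CPM in ZEB1_KO and 18.7 to 20.8 CPM in ZEB1_control. Myofibre markers were present in every library, with 0 of 8 at 0, and summed to between 90187 and 115463 CPM. The sums did not overlap in the ZEB2 line, at 112207 to 115463 CPM in ZEB2_KO and 99548 to 104234 CPM in ZEB2_control. Of the 8 markers, 5 were higher and 3 lower in ZEB2_KO. In the ZEB1 line the sums overlapped. CPM is the count of a gene relative to the size of its library, here scaled by the trimmed mean of M-values (TMM).

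Ubiquitin is made from precursors. Ubb encodes a chain of ubiquitin units joined head to tail and is known as a stress-inducible polyubiquitin gene. Rps27a encodes a single ubiquitin fused to a ribosomal protein. Uba1 is the main E1 enzyme, which activates ubiquitin with ATP and passes it to conjugating enzymes, from which ligases such as Trim63 (MuRF1) and Fbxo32 (atrogin-1) transfer it to muscle proteins during atrophy. Usp14 binds the 19S cap of the proteasome and removes ubiquitin from substrates there. Usp19 is a deubiquitinase with a membrane-anchored form, and its loss protects mice from muscle wasting.

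The annotated genes lie on GRCm38 (GENCODE M21) as follows. Ubb (ENSMUSG00000019505.7) spans chr11:62551171-62553213 on the plus strand, and Rps27a (ENSMUSG00000020460.15) chr11:29545846-29548109 on the minus strand. Uba1 (ENSMUSG00000001924.15) spans chrX:20658326-20683179 on the plus strand. Usp19 (ENSMUSG00000006676.16) spans chr9:108490602-108502337 on the plus strand.

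Start-site windows of 300 bases from RefSeq (GRCm38.p6) were matched for 3 of the 5 genes, and the first annotated start of each is shown because Ubb, Usp19 and Uba1 differed in how far they varied between libraries. They are chr11:62550921-62551220 for Ubb, chrX:20658052-20658351 for Uba1 and chr9:108490426-108490725 for Usp19, all on the plus strand and written 5′ to 3′. Capitals mark CCAAT, or ATTGG where it lies on the other strand.
Ubb: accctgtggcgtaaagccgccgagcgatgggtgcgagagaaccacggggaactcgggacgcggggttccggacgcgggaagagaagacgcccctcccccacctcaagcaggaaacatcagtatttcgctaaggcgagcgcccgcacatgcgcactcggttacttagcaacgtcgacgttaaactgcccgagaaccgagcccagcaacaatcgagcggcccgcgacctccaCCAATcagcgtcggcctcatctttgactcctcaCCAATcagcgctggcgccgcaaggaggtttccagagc
Uba1: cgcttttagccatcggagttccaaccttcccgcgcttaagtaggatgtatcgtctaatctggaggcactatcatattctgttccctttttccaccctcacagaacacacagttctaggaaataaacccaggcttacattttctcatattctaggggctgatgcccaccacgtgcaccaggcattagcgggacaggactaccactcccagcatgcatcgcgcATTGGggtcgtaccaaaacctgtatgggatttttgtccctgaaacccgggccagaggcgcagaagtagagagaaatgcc
Usp19: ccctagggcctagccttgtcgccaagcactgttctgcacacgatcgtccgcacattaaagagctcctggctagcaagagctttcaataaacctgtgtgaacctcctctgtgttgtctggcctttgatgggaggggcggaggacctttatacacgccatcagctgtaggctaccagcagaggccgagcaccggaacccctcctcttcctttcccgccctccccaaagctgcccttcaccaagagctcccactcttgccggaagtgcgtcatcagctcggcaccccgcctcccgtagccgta
Ubb holds 2 copies of CCAAT, the first before the annotated start and the second after it. Uba1 holds 1 copy, read on the other strand, and Usp19 holds 0. CCAAT occurs in 37.4% of all 32851 RefSeq windows of this length. Searched on both strands, CACCTG (an E-box that ZEB factors can bind) occurs in 20.2% of all windows, GTAAACA (a FoxO motif) in 3.65% and GAANNTTC (a pair of heat shock units) in 7.86%. None of these 3 motifs was found in the 6 windows of Ubb, Uba1 and Usp19. A match or its absence describes these letters in these windows and says nothing of binding in muscle.

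Usp14 (ENSMUSG00000047879.17) lies on chr18:9993066-10045119 on the minus strand. The exons of the 5 genes are not equally unique. Of the 50-base words in them, 48.1% in Ubb, 62.4% in Rps27a, 44.9% in Usp14, 0.734% in Uba1 and 0% in Usp19 occur in another annotated gene on either strand. For Ubb most of these are in the pseudogene Gm1821, which held 4726 counts over the 11 libraries against 693417 in Ubb. For Rps27a they are in 15 genes, led by the pseudogenes Gm8430 and Rps27a-ps2, with 386 and 385 counts against 87421 in Rps27a. For Usp14 they come from Thoc1 on the opposite strand, which overlaps it over 2424 bases and held 7546 counts against 29963 in Usp14. The labels do not say how such reads were divided in counting, so Ubb, Rps27a and Usp14 counts are less certain than those of Uba1 and Usp19.

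Per length of merged exons, Ubb and Rps27a were far above the enzymes. Over the 11 libraries Ubb averaged 1101 CPM per kb (range 471.6 to 2369) and Rps27a 266.7 CPM per kb (232.4 to 325.5). Uba1 averaged 27.3 CPM per kb (24.7 to 33.2), Usp19 25.6 CPM per kb (21.4 to 34.3) and Usp14 16.9 CPM per kb (8.78 to 30.7). Every library of Ubb lay above every library of Rps27a, and every library of Rps27a above every library of Uba1, while the ranges of Uba1, Usp19 and Usp14 overlapped.

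The genes also differed in how much they varied. The coefficient of variation over the 11 libraries was 51.5% for Ubb and 39.2% for Usp14, against a median of 17.1% over 7267 genes with a mean of at least 10 CPM, where Ubb ranked at percentile 96.0 and Usp14 at 90.7. Usp19 had 15.1% (percentile 40.5), Rps27a 10.4% (percentile 14.5) and Uba1 8.27% (percentile 5.66). From its lowest to its highest library Ubb spanned 5.02 times, Usp14 3.50 times, Usp19 1.60 times, Rps27a 1.40 times and Uba1 1.34 times. Ubb and Usp14 were thus among the more variable genes of this muscle, and Uba1 among the steadier ones.

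**Figure D1:**
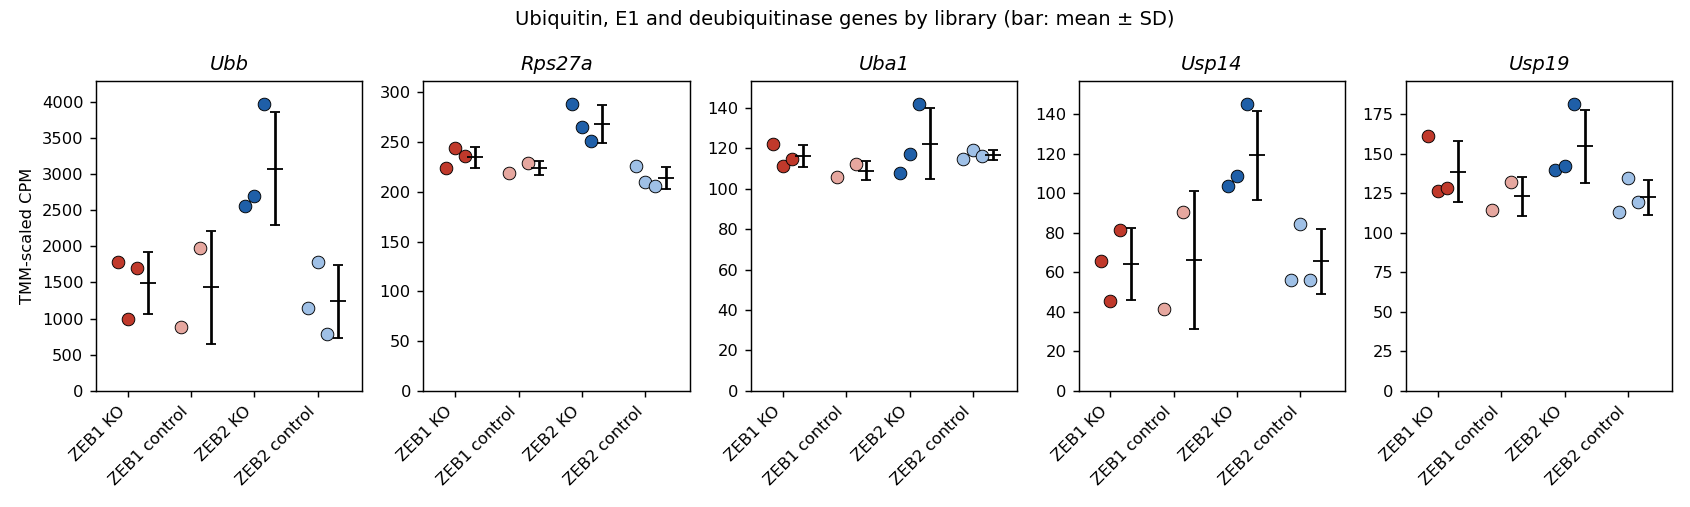
Level of each of the 5 genes in each of the 11 libraries, in TMM-scaled CPM on linear axes that start at 0; points are libraries, grouped by genotype, and bars show the group mean ± SD (n = 3, and n = 2 for ZEB1_control). All 3 ZEB2_KO libraries of Ubb (2556, 2695 and 3967 CPM) lie above all ZEB2_control libraries, while Uba1 stays between 105.6 and 141.8 CPM in all 11.

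In the ZEB1 line, no ubiquitin, activation or deubiquitinase gene among the 5 separated knockouts from controls, where the groups did not overlap for 13.9% of all genes tested. Ubb stood at 1784, 999.9 and 1703 CPM in ZEB1_KO, against 881.4 and 1979.6 CPM in ZEB1_control, so the controls lay on either side of all 3 knockouts. The edgeR estimate was 0.06 on the log2 scale (SE 0.42; 95% confidence interval -0.86 to 0.99). Rps27a stood at 223.7, 244.3 and 236.0 CPM in ZEB1_KO, against 219.2 and 229.4 CPM in ZEB1_control, with a log2 fold change of 0.07 and an SE of 0.13 (interval -0.22 to 0.35). The ranges of this ribosomal fusion gene were narrow and overlapped.

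Uba1 stood at 121.9, 111.3 and 114.4 CPM in ZEB1_KO, against 105.6 and 112.0 CPM in ZEB1_control, a log2 fold change of 0.09 (SE 0.14; interval -0.23 to 0.41). Usp14 stood at 65.6, 45.3 and 81.5 CPM in ZEB1_KO, against 41.5 and 90.8 CPM in ZEB1_control, a log2 fold change of -0.04 (SE 0.34; interval -0.80 to 0.71). As with Ubb, both extremes of Usp14 in this line were control libraries. Usp19 stood at 161.1, 126.5 and 128.2 CPM in ZEB1_KO, against 114.2 and 131.8 CPM in ZEB1_control, a log2 fold change of 0.17 (SE 0.17; interval -0.21 to 0.55). The highest library was a knockout, and the groups overlapped.

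Over all genes, edgeR's quasi-likelihood test called 0 of 15416 in this comparison at a Benjamini-Hochberg adjusted p of 0.05 (0%), with 499 genes at an unadjusted p under 0.05 (3.24%), 21 called by DESeq2 (0.113%) and 1 by limma-voom. Of the 5 genes, 0 were called by any of these tools, 0 had an unadjusted p under 0.05, and 0 had groups that did not overlap. The signs of Ubb and Usp14 here depend on single libraries, and turned in 3 of 11 omissions for Ubb and 2 of 11 for Usp14. Leaving out a control library gave the extremes. Without ZEB1_control 2 the log2 fold change was -0.43 for Ubb and -0.52 for Usp14, and without ZEB1_control 3 it was 0.75 and 0.62. Changes within the intervals given are compatible with these pools and were not excluded.

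In the ZEB2 line, Ubb, Rps27a, Usp14 and Usp19 were higher in all 3 knockout libraries than in any control library, and Uba1 was not. Of all genes tested, 21.3% were likewise higher without overlap, and 43.4% did not overlap in either direction. Ubb stood at 2556, 2695 and 3967 CPM in ZEB2_KO and at 1141, 1788 and 789.9 CPM in ZEB2_control, averaging 3073 ± 778 CPM in ZEB2_KO and 1239 ± 506 CPM in ZEB2_control (SD, n = 3 each). The edgeR estimate was 1.31 on the log2 scale (SE 0.38; 95% confidence interval 0.47 to 2.15), short of the threshold over all genes (edgeR, adjusted p = 0.0824). DESeq2 called it at an adjusted p of 0.00951, and limma-voom did not (adjusted p = 0.0721).

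Rps27a stood at 288.4, 265.0 and 251.4 CPM in ZEB2_KO and at 226.4, 209.7 and 205.9 CPM in ZEB2_control. Its log2 fold change of 0.33 (SE 0.11, interval 0.07 to 0.58) was smaller than that of Ubb and rested on a narrower spread (edgeR, adjusted p = 0.0980; DESeq2, adjusted p = 0.0161). The highest Rps27a library was ZEB2_KO 1, which had the lowest Ubb level of the 3 knockouts.

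Uba1 stood at 107.6, 117.3 and 141.8 CPM in ZEB2_KO and at 114.5, 119.1 and 115.9 CPM in ZEB2_control. ZEB2_KO 1 lay below all controls and ZEB2_KO 3 above them, and the log2 fold change was 0.07 (SE 0.13, interval -0.21 to 0.35; edgeR, adjusted p = 0.723). Without ZEB2_KO 3 it was -0.031, and with scaling to library totals alone -0.058, so Uba1 has no stable sign in this comparison.

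Usp14 stood at 103.9, 108.6 and 145.1 CPM in ZEB2_KO and at 56.1, 84.4 and 56.0 CPM in ZEB2_control, a log2 fold change of 0.86 (SE 0.31; interval 0.18 to 1.54). The groups did not overlap, edgeR gave an adjusted p of 0.1004, and DESeq2 called it at an adjusted p of 0.0383. Usp19 stood at 139.9, 142.4 and 181.3 CPM in ZEB2_KO and at 113.1, 134.6 and 119.5 CPM in ZEB2_control, a log2 fold change of 0.34 (SE 0.15; interval -0.0031 to 0.68). It also did not overlap, and neither edgeR (adjusted p = 0.154) nor DESeq2 (adjusted p = 0.111) called it.

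Over all genes, edgeR called 0 of 15416 in this comparison (0%), with a smallest adjusted p of 0.0775, while 5113 genes had an unadjusted p under 0.05 (33.2%), DESeq2 called 2532 (18.6%) and limma-voom 0. DESeq2 called 3 of the 5 (Ubb, Rps27a and Usp14) as higher, against 10.1% of the genes it tested, and the same 3 had an unadjusted edgeR p under 0.05, against 15.9% of all genes being higher at that level. Fitted with the ZEB2 libraries only, edgeR called 2077 genes, with Ubb at a log2 fold change of 1.32 (adjusted p = 0.0398) and Usp14 at 0.87 (adjusted p = 0.0399). The number of genes tested in that fit is not given here, so the calls of Ubb and Usp14 cannot be set beside a share of all genes.

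**Figure D2:**
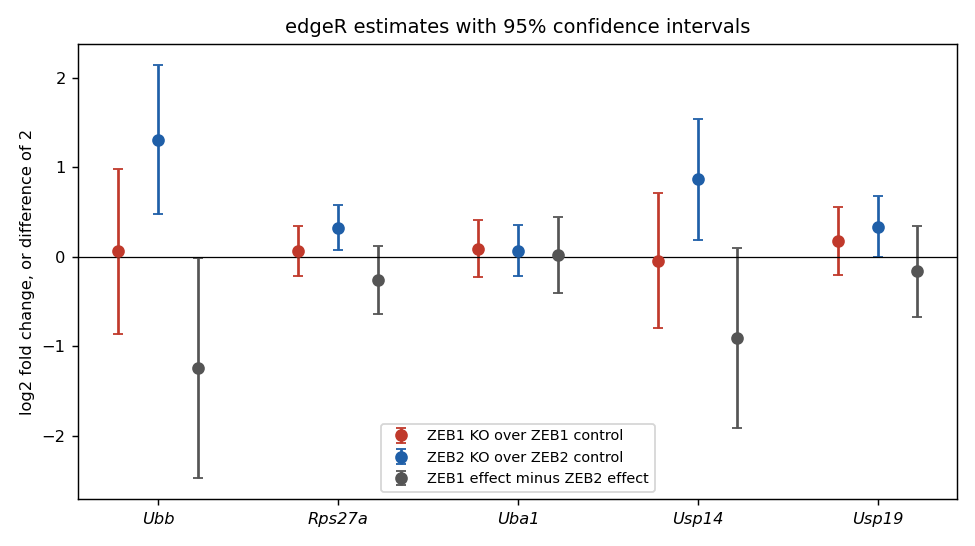
Log2 fold change of each of the 5 genes, knockout over control, in the ZEB1 and ZEB2 lines from the edgeR fit over all 11 libraries. Grey points show the ZEB1 effect minus the ZEB2 effect. Points are estimates and bars 95% confidence intervals. In the ZEB2 line the intervals of Ubb (0.47 to 2.15), Rps27a (0.07 to 0.58) and Usp14 (0.18 to 1.54) lie above 0, and in the ZEB1 line every interval includes 0.

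Markers of other cell and fibre types also differed between knockouts and controls, in part in both lines. Slow fibre markers summed to 621 to 986 CPM in ZEB2_KO and 1049 to 1452 CPM in ZEB2_control, with 6 of 6 lower. Tendon markers summed to 54.2 to 66.8 CPM in ZEB2_KO and 84.5 to 158.7 CPM in ZEB2_control, with 5 of 5 lower, and smooth muscle and pericyte markers to 363.3 to 385.8 CPM in ZEB2_KO and 482.5 to 531.7 CPM in ZEB2_control, with 4 of 4 lower. Schwann cell markers were lower in 5 of 5, adipocyte markers in 4 of 4 and fibroblast markers in 5 of 6. For Schwann cell, adipocyte and fibroblast markers the sums of the ZEB2 groups overlapped. In these lists and those before them, 0 markers were at 0. In the ZEB1 line tendon markers summed to 42.7 to 53.7 CPM in ZEB1_KO and 94.7 to 101.5 CPM in ZEB1_control, with 5 of 5 lower, and fibroblast markers to 1497 to 2075 CPM in ZEB1_KO and 2385 to 2449.8 CPM in ZEB1_control, with 6 of 6 lower. Slow fibre markers were lower in 6 of 6 and Schwann cell markers in 5 of 5 there, with sums that overlapped. Smooth muscle and pericyte markers were higher in 4 of 4, but only by log2 fold changes of 0.04 to 0.08. Their sums also overlapped, at 409.0 to 536.9 CPM in ZEB1_KO and 433.7 to 463.9 CPM in ZEB1_control. The share of counts from the mitochondrial genome was 12.1% to 14.9% in ZEB2_KO and 16.0% to 18.0% in ZEB2_control. In a whole-muscle sample, fewer cells of a type and less RNA per cell cannot be told apart, and the part of these shifts in the ubiquitin values was not tested.

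The pools also differed in sex composition. The 4 Y-linked genes summed to 215.7 to 378.2 CPM in ZEB2_KO and to 0 to 249.9 CPM in ZEB2_control, and to 0 to 209.8 CPM in ZEB1_KO and 0 to 162.9 CPM in ZEB1_control. Within the ZEB1 controls the sum was 0 CPM in ZEB1_control 2 and 162.9 CPM in ZEB1_control 3. With the Y-linked level as a covariate, the ZEB2 log2 fold change was 1.04 for Ubb (edgeR, adjusted p = 0.163) and 0.59 for Usp14 (adjusted p = 0.206).

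The difference between both knockout effects was tested directly. The ZEB1 effect minus the ZEB2 effect was -1.25 (log2) for Ubb, with an SE of 0.55 and a 95% confidence interval of -2.47 to -0.017, an unadjusted p of 0.0474 and an edgeR adjusted p of 0.516. It was -0.91 (SE 0.46) for Usp14 (adjusted p = 0.516), -0.26 (SE 0.17) for Rps27a (adjusted p = 0.558), -0.16 (SE 0.23) for Usp19 (adjusted p = 0.777) and 0.02 (SE 0.19) for Uba1. Of the 5 genes 1, Ubb, had an unadjusted p under 0.05, against 4.17% of all genes being lower at that level. No gene passed the adjusted threshold in edgeR (0 of 15416, 0%), with 1427 at an unadjusted p under 0.05 (9.26%), 15 called by DESeq2 (0.0904%) and 0 by limma-voom. Without ZEB1_control 3 the difference was -0.58 for Ubb and -0.27 for Usp14, and without ZEB1_control 2 it was -1.76 and -1.41. The Usp19 difference ran from -0.32 without ZEB1_KO 1 to -0.071 without ZEB2_KO 3. These pools therefore do not show that the lines differ in these genes.

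Averaged over both lines, the knockout effect was 0.69 (SE 0.28) for Ubb (edgeR, adjusted p = 0.211) and 0.20 (SE 0.086) for Rps27a (adjusted p = 0.224) on the log2 scale. Without ZEB1_control 2 the Ubb average was 0.45, and without ZEB1_control 3 it was 1.04. These 2 of the 5 had an unadjusted p under 0.05, against 9.36% of all genes being higher at that level. edgeR called 0 genes here (0%), with 3303 at an unadjusted p under 0.05 (21.4%), 370 by DESeq2 (2.81%) and 0 by limma-voom, and DESeq2 called 0 of the 5.

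The control groups were also compared, with libraries that both knockout comparisons use. ZEB1_control over ZEB2_control gave 0.21 (SE 0.41) for Ubb, 0.07 (SE 0.13) for Rps27a, -0.10 (SE 0.14) for Uba1, 0.01 (SE 0.34) for Usp14 and 0.01 (SE 0.17) for Usp19 on the log2 scale, all at an edgeR adjusted p of 1.00. Of the 5, only Uba1 had control groups that did not overlap, with 105.6 and 112.0 CPM in ZEB1_control below 114.5, 119.1 and 115.9 CPM in ZEB2_control, against 16.6% of all genes without overlap. edgeR called 3 genes in this comparison (0.0195%), with 512 at an unadjusted p under 0.05 (3.32%) and 16 called by DESeq2 (0.076%), and 0 of the 5 were among any of them.

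The balance between the polyubiquitin gene Ubb and the ribosomal fusion gene Rps27a was compared within libraries. The log2 ratio of Ubb to Rps27a CPM within a library averaged 3.49 ± 0.43 in ZEB2_KO and 2.45 ± 0.59 in ZEB2_control (SD, n = 3 each), a difference of 1.04 with an exact two-sided permutation p of 0.1, the smallest that 3 against 3 libraries allow. For the ZEB1 libraries that difference was 0.07 (exact permutation p = 1, where 0.2 is the smallest that 3 against 2 allow).

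Set against Ubb, the enzymes were lower in ZEB2_KO. Their own log2 fold changes there were 0.07 for Uba1, 0.34 for Usp19 and 0.86 for Usp14, beside 1.31 for Ubb. The 3 ratios share Ubb, so they restate its larger estimate and are not separate results. The log2 ratio to Ubb was lower by 1.30 for Uba1, 1.03 for Usp19 and 0.49 for Usp14 in ZEB2_KO than in ZEB2_control, without overlap in each case (exact permutation p = 0.1 each). The ZEB1 groups overlapped for all 3 ratios. Over 10 ratio tests, 5 in each line, no p could pass 0.05 in this design.

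The E1 enzymes, which activate ubiquitin or its relatives, had no shared direction. Of 10 tested, Uba1 included, 5 were higher and 5 lower in ZEB2_KO, with a median log2 fold change of -0.08 against -0.047 over all genes. Without overlap, 2 of the 10 were higher and 5 lower, where 3279 of all 15416 genes tested were higher and 3407 lower. Uba6, the other E1 for ubiquitin, stood at 4.39, 3.66 and 3.35 CPM in ZEB2_KO and at 5.44, 5.38 and 6.94 CPM in ZEB2_control, a log2 fold change of -0.64 (SE 0.22; edgeR, adjusted p = 0.0950; DESeq2, adjusted p = 0.0573). Atg7, the E1-like enzyme of autophagy, was at 0.59 (SE 0.22; edgeR, adjusted p = 0.106) and Uba3, a subunit of the E1 for Nedd8, at -0.26 (SE 0.14; edgeR, adjusted p = 0.204). Between the ZEB1 groups 5 of the 10 were higher, and Uba7, the E1 for the ubiquitin-like Isg15, was at -0.50 and Atg7 at 0.23. Without ZEB1_KO 1 the Atg7 value was 0.012, and without ZEB1_control 2 the Uba7 value was 0.21.

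Usp14 had a log2 fold change close to those of the proteasome it binds. In the ZEB2 line 18 of 18 subunits of the 19S cap and 14 of 14 of the 20S core were higher in knockouts, with median log2 fold changes of 0.74 and 0.89, beside 0.86 for Usp14. The log2 ratio of Usp14 to the median 19S subunit averaged -1.08 ± 0.05 in ZEB2_KO and -1.14 ± 0.19 in ZEB2_control (SD, n = 3 each), a difference of 0.06 with an exact permutation p of 0.9. Between ZEB1_KO and ZEB1_control the difference was -0.14 (exact permutation p = 0.6). The other genes listed as deubiquitinases of the cap had unequal values. In the ZEB2 line Psmd7, a structural partner of the catalytic subunit, was at 0.74 (SE 0.23; DESeq2, adjusted p = 0.0250) and Psmd14, the catalytic subunit, at 0.65 (SE 0.28; DESeq2, adjusted p = 0.0837), while Uchl5 was at 0.01 (SE 0.10), with 21.4, 21.1 and 19.9 CPM in ZEB2_KO and 21.3, 20.2 and 20.4 CPM in ZEB2_control. The ZEB1 estimates were 0.22 for Psmd7, 0.09 for Uchl5 and 0.01 for Psmd14. Rps27a had a smaller log2 fold change than the median gene of the small ribosomal subunit, of which 32 of 32, Rps27a included, were higher in ZEB2_KO with a median of 0.43.

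The 91 listed genes of deubiquitinase families include some known for other work, such as Psmd7, Cops5, Eif3f and Eif3h. Among the 84 of them tested, Usp19 ranked 13 and Usp14 21 by level per length, and 59 and 11 by coefficient of variation. Of the 82 others, 63 were higher and 19 lower in ZEB2_KO, with a median log2 fold change of 0.27, where 46.6% of all genes were higher with a median of -0.047. At an unadjusted edgeR p under 0.05 there were 32 higher and 4 lower (15.9% and 17.3% of all genes), DESeq2 called 15 higher and 1 lower (10.1% and 8.51% of all genes it tested), and edgeR called 0. Psmd7, Cops5, Eif3f and Eif3h are among the 15. Between the ZEB1 groups 53 of the 82 were higher and 29 lower, with a median of 0.05, and 1 in each direction had an unadjusted p under 0.05, where 1.64% of all genes were higher and 1.6% lower at that level. By family in the ZEB2 line, 36 of 49 listed genes of the ubiquitin-specific protease family, Usp14 and Usp19 included, were higher (median 0.24). Of the other families, 29 of 35 listed genes were higher (median 0.33).

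Several of the listed genes with the smallest p-values in the ZEB2 line are known for work other than removing ubiquitin. Eif3f, a subunit of translation initiation factor eIF3 that shares the fold of one deubiquitinase family, stood at 170.9, 159.7 and 158.7 CPM in ZEB2_KO and at 130.3, 117.2 and 102.7 CPM in ZEB2_control, a log2 fold change of 0.48 (SE 0.12; edgeR, adjusted p = 0.0775; DESeq2, adjusted p = 0.00311). Its partner Eif3h was at 0.41 (SE 0.12; DESeq2, adjusted p = 0.0102). Cops5, the subunit of the COP9 signalosome that removes Nedd8, was at 0.57 (SE 0.15; DESeq2, adjusted p = 0.0145). Usp16, a histone H2A deubiquitinase, was at 0.40 (SE 0.12; DESeq2, adjusted p = 0.0235) and Usp42 at 0.77 (SE 0.25; DESeq2, adjusted p = 0.0316). Usp38 was at 0.41 (SE 0.15; DESeq2, adjusted p = 0.0558). edgeR called 0 of the listed genes in either knockout comparison.

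Tnfaip3 (A20), an inhibitor of NF-κB signalling, was the listed gene that lay lower without overlap in both lines, a pattern seen after its values were known and shared by 333 of 15416 genes tested (2.16%). It stood at 2.50, 2.48 and 1.86 CPM in ZEB1_KO, against 4.14 and 3.25 CPM in ZEB1_control, a log2 fold change of -0.70 (SE 0.22; edgeR, adjusted p = 1.00). In the ZEB2 line it stood at 2.81, 2.72 and 2.73 CPM in ZEB2_KO and at 3.74, 3.96 and 4.95 CPM in ZEB2_control, a log2 fold change of -0.62 (SE 0.20; edgeR, adjusted p = 0.0895; DESeq2, adjusted p = 0.0492). Its ZEB2 and averaged values were added after its ZEB1 value was seen. Averaged over both lines it was at -0.66 with an SE of 0.15 (edgeR, adjusted p = 0.181; DESeq2, adjusted p = 0.0193). Macrophage markers summed to 32.4 to 52.1 CPM in ZEB1_KO and 46.4 to 54.3 CPM in ZEB1_control, and to 27.3 to 31.1 CPM in ZEB2_KO and 32.6 to 42.2 CPM in ZEB2_control, with 4 of 5 lower in each line, and their part in the Tnfaip3 values was not tested. Usp20 was the listed gene with the smallest p among those higher in ZEB1_KO, at 0.47 on the log2 scale with an SE of 0.21. Usp31 was at 0.31, Usp40 at 0.36, Otud3 at 0.26 and Mindy3 at -0.24 in the ZEB1 line. Leaving out ZEB1_control 2 or ZEB1_control 3 gave 0.24 and 0.70 for Usp20, 0.52 and 0.11 for Usp31, and 0.38 and 0.13 for Otud3.

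**Figure D3:**
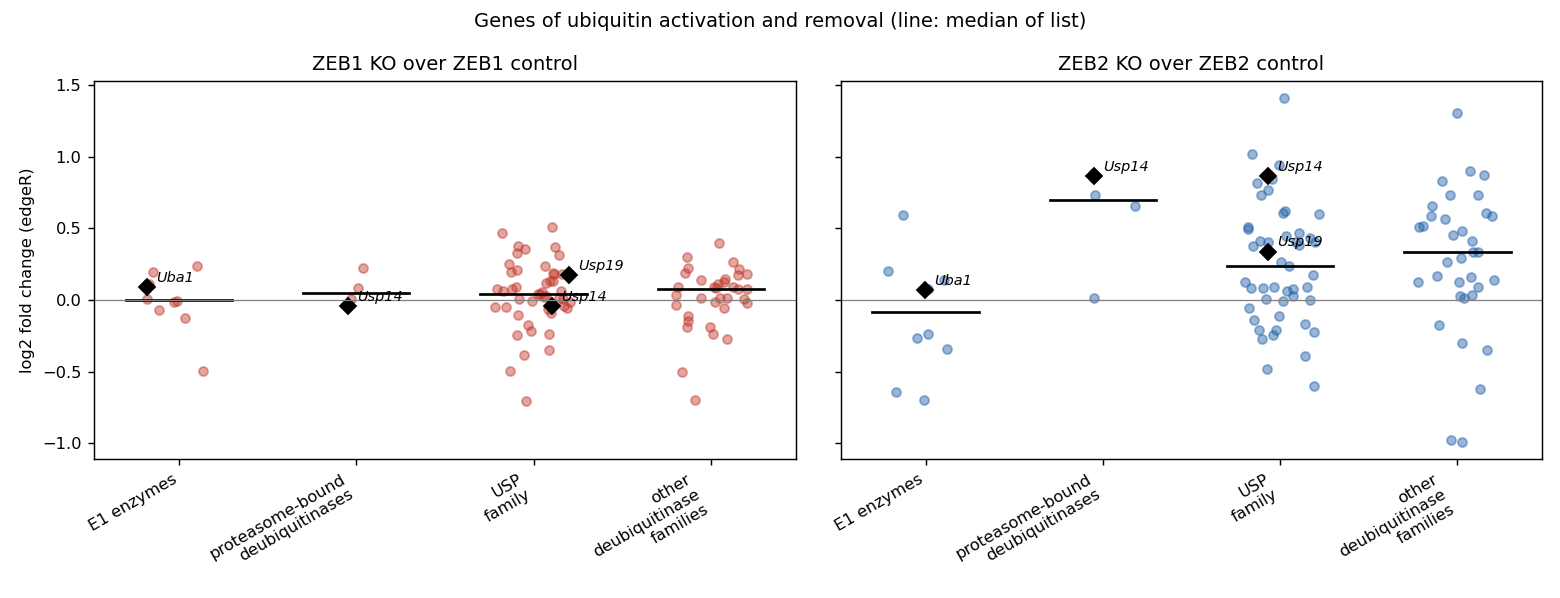
Log2 fold change, knockout over control, of the tested genes of each list, in the ZEB1 line (left) and the ZEB2 line (right); each point is a gene, black diamonds are Uba1, Usp14 and Usp19, with Usp14 in both lists that hold it, and horizontal lines are list medians. In the ZEB2 panel the medians run from -0.08 for E1 enzymes to 0.70 for proteasome-bound deubiquitinases, and in the ZEB1 panel they stay near 0.

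Across the 11 libraries the 5 genes fell into different company. The correlations that follow are of log2 CPM over 11 libraries of 4 groups, are given as a description, and share library and depth. Ubb and Usp14 had a Pearson r of 0.951, which stayed at 0.929 after group means were removed. Ubb and Usp19 had 0.830 (0.721 after removal), and Ubb and Uba1 0.587 (0.586 after removal). Ubb and Rps27a, which both make ubiquitin, had 0.636, and -0.208 after group means were removed.

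Ubb ran with the atrophy genes. Its r was 0.965 with Fbxo32 (0.956 after group means were removed), 0.943 with Trim63 and 0.939 with Foxo1, the transcription factor that drives both ligases in wasting muscle. Fbxo32 itself stood at 3300.3 to 5024 CPM in ZEB2_KO and 973.2 to 2147 CPM in ZEB2_control, and at 1175 to 2456 CPM in ZEB1_KO and 801.5 to 2689.8 CPM in ZEB1_control. Usp14 had an r of 0.932 with Fbxo32, 0.905 with Trim63 and 0.860 with Foxo1. For Usp19 these were 0.775 with Fbxo32, 0.777 with Trim63 and 0.904 with Foxo1. The share of all genes with such values is not given here. By rank the correlation with Fbxo32 was 0.964 for Ubb, 0.955 for Usp14, 0.855 for Usp19, 0.718 for Rps27a and 0.436 for Uba1. Rps27a had 0.601 with Fbxo32 (-0.031 after removal) and Uba1 0.595. The 3 libraries lowest in Ubb were ZEB2_control 3, ZEB1_control 2 and ZEB1_KO 2, from 3 different groups. In each of them the Y-linked genes summed to 0 CPM. That sum was also 0 CPM in ZEB1_KO 1, where Ubb stood at 1784 CPM. The part of sex composition in this order was not tested.

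**Figure D4:**
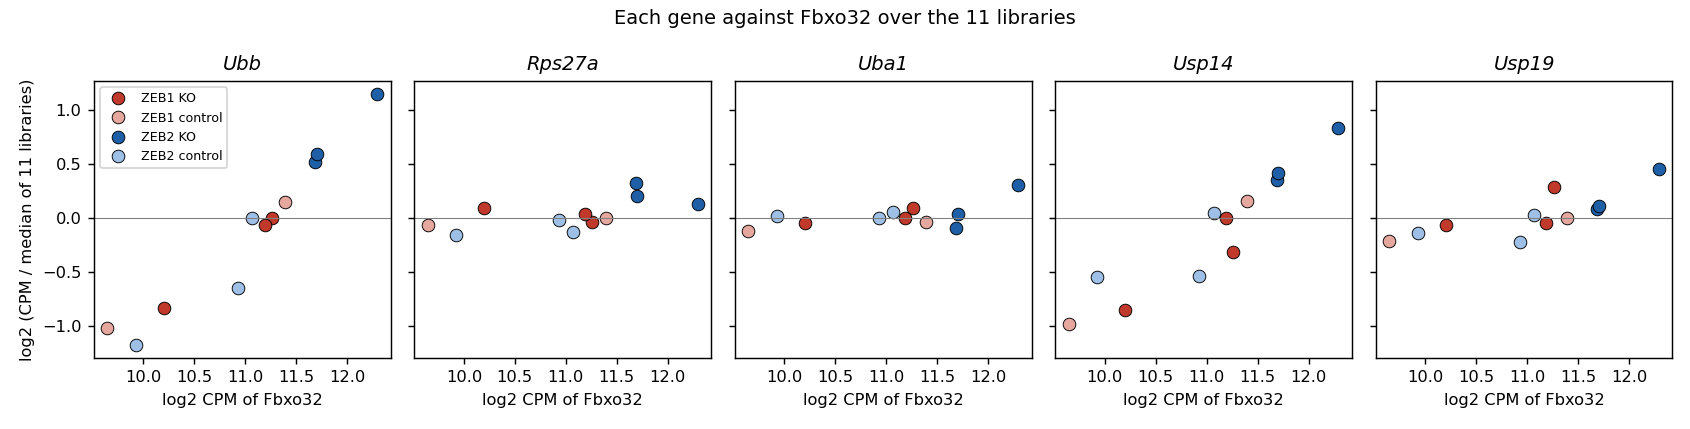
Level of each of the 5 genes, as log2 of its CPM over its median in the 11 libraries, against log2 CPM of Fbxo32. Each point is a library, and colours mark the 4 groups. Ubb (r = 0.965) and Usp14 (r = 0.932) lie closest to a line with Fbxo32, while Uba1 (r = 0.595) scatters more, and Rps27a (r = 0.601) has an r of -0.031 once group means are removed.

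Among 7064 named genes with a mean of at least 10 CPM, the patterns most like each gene were these. For Ubb they were Oser1 (r = 0.996), Dnttip2 (r = 0.991) and Ccdc174 (r = 0.990), and Oser1 ordered the 11 libraries exactly as Ubb did (rank correlation 1). For Rps27a they were the ribosomal protein genes Rpl32 (r = 0.969), Rps21 (r = 0.968) and Rps15a (r = 0.967). For Usp14 they were Psma1, a 20S proteasome subunit (r = 0.995), Ctu2, which modifies transfer RNA (r = 0.995), and Psmc4, a 19S ATPase (r = 0.991). For Usp19 they were Hnrnpll (r = 0.964), Ccar2 (r = 0.963) and Parp6 (r = 0.961). For Uba1 the likeness was weaker, with Slc22a23 (r = 0.920), Ppp6r1 (r = 0.918) and the splicing factor Prpf8 (r = 0.898), and the rank correlation of the last was 0.645.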

How the data were processed

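The table deposited by the authors gives whole-number counts per gene for 11 libraries, with no normalization. Per the labels' protocols, a stranded mRNA kit was used on total RNA. The submitters' processing notes name STAR, RSEM, DESeq2 and GRCm38. They state no version, annotation or strand option, and the counts may be rounded RSEM estimates.

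Groups follow titles and genotypes. The analysis used edgeR 4.0.16 under R 4.3.3. filterByExpr (minimum count 10, minimum total 15) kept 15416 genes with 99.96% of counts. After TMM scaling, 4 group means were fitted to 11 libraries by robust quasi-likelihood, which gave 5 comparisons, with Benjamini-Hochberg adjustment over all genes and a threshold of 0.05. The biological coefficient of variation was 0.240. An SE is the size of the log2 fold change over the root of its F statistic. No replicate pair was as close as counting noise allows, with chi-square values of 15.0 to 100.0 per degree of freedom over 10 pairs. The fit was tested on simulated data. Alternatives were DESeq2 1.42.0, limma-voom (limma 3.58.1), other scalings and filters, the groups compared alone, a replicate block, a Y-linked covariate and leaving out each library. Ratios were tested by exact permutation over libraries, and correlations between genes used log2 CPM without a prior count. Correlations of deviations between numbered libraries used log2 CPM with a prior count of 2.

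The genes and lists were chosen with earlier results of these data known. Named list genes are up to 3 per list and knockout comparison with the smallest unadjusted edgeR p, and likeness takes the 3 genes with the highest r. Some genes this rule names are not reported here. The number of pools limits precision more than depth does.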

Additional observations from a re-analysis of the deposited data

How the results depend on the processing

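Calls depended on the tool and the samples fitted. DESeq2 called 21, 2532, 15, 16 and 370 genes in the ZEB1, ZEB2, difference, control and averaged comparisons, no filter on low counts gave 6, 348, 2, 7 and 5, limma-voom gave 1 in the ZEB1 comparison, and fitting only the ZEB2 groups gave 2077 there. The number of genes tested without the filter and with only the ZEB2 groups is not given here. For the controls, where edgeR called 3, size factors of the relative log expression kind gave 5 and a replicate block 1. DESeq2 put the ZEB2 log2 fold change of Ubb at 1.34, Rps27a at 0.36 and Usp14 at 0.90, all called, and the ZEB2 groups alone put Ubb at 1.32 and Usp14 at 0.87, both called. The cause was not tested. Signs turned for some values near 0. In the ZEB1 line Usp14 was 0.023 with limma-voom, 0.058 with a replicate block and 0.11 with the Y-linked covariate, and Psmd14 was -0.026 with library totals, -0.021 with a filter of 1 CPM and -0.00087 without mitochondrial genes. With library totals in the ZEB2 line, Uba1 was -0.058 and Uchl5 -0.11. That scaling moved the median of all genes by -0.13, and relative to the median Ubb was 1.36 under TMM and 1.37 under library totals. For the difference, Uba1 was -0.0070 with DESeq2 and -0.0060 with the other size factors. Between controls Usp14 was -0.066 with limma-voom and -0.15 with the block, and averaged over lines Uba1 was -0.011 with library totals.

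Leaving out 1 library at a time gave 0 to 5 called genes for ZEB1_KO, 0 for ZEB2_KO, 0 to 3 for the difference, 1 to 5 for the controls and 0 to 17 for the average, and 0 of the 5 genes were called in any omission. In the ZEB1 line the log2 fold change ran from -0.43 to 0.75 for Ubb, -0.52 to 0.62 for Usp14, -0.98 to 0.21 for Uba7, -0.075 to 0.55 for Psmd7 and -0.36 to 0.45 for Psmd14, with the extremes set by the 2 control libraries. In the ZEB2 line Uba1 ran from -0.031 to 0.15 and Uchl5 from -0.0084 to 0.065, while Ubb kept to 1.07 to 1.67, Rps27a to 0.27 to 0.39, Usp14 to 0.72 to 1.09 and Usp19 to 0.23 to 0.41. For the difference Uba1 ran from -0.063 to 0.10 and Usp14 from -1.41 to -0.27. Between controls Ubb ran from -0.48 to 0.70, Usp14 from -0.65 to 0.49 and Usp19 from -0.088 to 0.13. The ZEB1 log2 ratios ran from -0.48 to 0.62 for Ubb to Rps27a, -0.33 to 0.056 for Usp14 to 19S, -0.19 to 0.0032 for Usp14 to Ubb, -0.58 to 0.50 for Uba1 to Ubb and -0.45 to 0.51 for Usp19 to Ubb, and the ZEB2 ratio of Usp14 to 19S from -0.049 to 0.12.

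The numbers were not taken as pairs, since the ZEB1 line has only 2 numbered pairs and the ZEB2 pairs did not deviate together. Deviations from group means correlated at 0.46 and 0.17 for numbers 2 and 3 of the ZEB1 line and at 0.20, -0.027 and -0.31 for numbers 1 to 3 of the ZEB2 line, where 1 of 3 knockout libraries matched best with its own number. With the replicate block the ZEB2 log2 fold change was 1.24 for Ubb (edgeR, adjusted p = 0.1004), 0.33 for Rps27a, 0.81 for Usp14 and 0.33 for Usp19, and no call among the 5 genes changed.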
